A study of Mus musculus with 4 samples.

Results

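The triad is the junction in a skeletal muscle fiber at which a transverse tubule (T-tubule), an infolding of the surface membrane, is held between terminal cisternae of the sarcoplasmic reticulum. The data described here are the transcript levels of 9 genes that build or occupy this junction, namely Jph1, Jph2, Trdn, Jsrp1, Stac3, Srl, Hrc, Bin1 and Mtm1. Their entries were found by gene name, with no threshold on a measured value, although the set itself was put together with earlier results of these data known. Each had exactly 1 entry in every library, out of 24850 named entries in the total RNA tables and 24992 in the polyA tables. All libraries came from C2C12, a single mouse myoblast line that fuses into myotubes when growth medium is replaced by differentiation medium (DM). The total RNA libraries, depleted of rRNA, were 1 of myoblasts (MB, DM -24 hours) and 1 of myotubes (MT, DM 72 hours). The polyA libraries were 2 of cells at DM 48 hours, 1 transfected with a siRNA against hnRNPL (si-hnRNPL) and 1 with a scrambled control siRNA (si-NC), both at 100 nM. Sample labels name C2C12 myoblasts as the cell type of each of the 4 libraries, and MT is taken from the titles. Every condition has 1 library, so the spread between cultures is not known and no test was made.

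In a muscle fiber, an action potential that travels down the T-tubule moves the voltage sensor of the dihydropyridine receptor, which opens the ryanodine receptor of the facing reticulum and lets calcium out onto the myofibrils. The junctophilins bridge the membranes, Trdn and Jsrp1 sit at the junctional face of the reticulum, and Stac3 is needed for the coupling of voltage sensor and release channel. Srl and Hrc bind calcium inside the reticulum, whereas Bin1 and Mtm1 act on the shape and the phosphoinositides of the T-tubule membrane. Loss of Stac3, Bin1 or Mtm1 function causes congenital myopathies in humans.

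MyoD and myogenin, the transcription factors that drive muscle differentiation, bind E-boxes, which carry the letters CANNTG, and often the form CAGCTG. The 250 bases before the start of the locus were therefore searched in mm9 for 7 of the 9 genes, while the windows of Bin1 and Jph1 were not analysed here. Both motifs read the same on either strand, and each CAGCTG is also counted as a CANNTG. All 7 windows held at least 1 CANNTG, which 61.5% of 18507 windows of protein-coding genes also held. The form CAGCTG was present in 5 of the 7, those of Jph2, Jsrp1, Stac3, Srl and Hrc, and in 12.2% of all windows. It started within the last 60 bases before the locus in all 5, as it did in 3.35% of all windows, a cutoff chosen after the positions were seen. The MEF2 element, searched by its consensus on both strands, was in 0 of the 7 windows and in 2.67% of all. A match of letters is not a measured binding site. The stretches below run 5′ to 3′ toward the locus start and are shown because they hold these E-boxes, in capitals, next to the start. Those of Stac3 and Srl stop at an annotated exon. The second CAGCTG of Stac3, which starts 28 bases before the locus, is therefore not shown. The end of the Srl stretch, with part of its CAGCTG, is in such an exon. The first 5 hold CAGCTG, and the last, from Trdn, holds another form.

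Jph2 (chr2:163223730-163223829, minus strand): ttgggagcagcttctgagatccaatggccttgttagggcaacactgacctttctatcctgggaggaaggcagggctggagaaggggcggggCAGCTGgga
Jsrp1 (chr10:80276244-80276343, minus strand): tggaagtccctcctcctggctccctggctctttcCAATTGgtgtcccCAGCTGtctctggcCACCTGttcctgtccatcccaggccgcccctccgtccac
Stac3 (chr10:126938673-126938741, plus strand): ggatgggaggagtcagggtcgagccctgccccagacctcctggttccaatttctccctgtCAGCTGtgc
Srl (chr16:4523073-4523153, minus strand): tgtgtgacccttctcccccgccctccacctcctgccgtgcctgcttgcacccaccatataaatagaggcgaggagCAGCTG
Hrc (chr7:52590539-52590638, plus strand): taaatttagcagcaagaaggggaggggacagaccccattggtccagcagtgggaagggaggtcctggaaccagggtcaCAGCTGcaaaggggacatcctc
Trdn (chr10:32803189-32803288, plus strand): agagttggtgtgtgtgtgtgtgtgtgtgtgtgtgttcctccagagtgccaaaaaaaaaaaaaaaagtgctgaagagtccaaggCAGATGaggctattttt

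**Figure D1:**
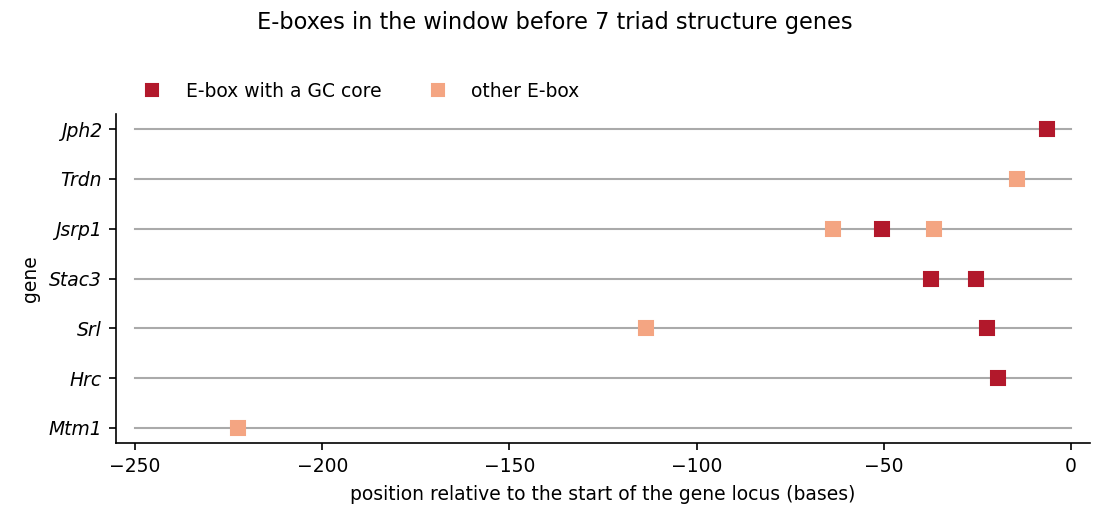
Positions of E-boxes (squares) in the 250 bases before the locus start of 7 genes, with the x axis in bases from the start. Dark squares are CAGCTG and light squares are other CANNTG forms; the dark squares of Jph2, Jsrp1, Stac3, Srl and Hrc all lie within 60 bases of the start.

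The tables gave FPKM (fragments per kilobase of transcript, scaled to the number of mapped fragments) with a 95% interval, which reflects counting and read assignment inside 1 library and not the spread between cultures. The widths of the intervals correspond to 59960176 fragments in MB, 54442655 in MT, 21341051 with si-NC and 14592485 with si-hnRNPL. For single values of the 9 genes they correspond to 536 to 27402 fragments in MT, 142 to 2645 in si-NC, 73.3 to 2609 in si-hnRNPL and 0 to 13255 in MB. These numbers are derived from the intervals and were not counted, and they are too low where read assignment widened an interval. Differentiation was visible in markers, as the summed FPKM of 10 myotube markers was 161 in MB and 2240 in MT and that of 6 genes of dividing cells was 697 in MB and 147 in MT. Markers of endothelial cells and of neurons summed to at most 0.0327 FPKM in either total RNA library, and the adipocyte genes Adipoq, Plin1 and Lep were listed at 0 in both. Cebpa, which adipocytes share with other cells, was at 4.65 in MB and 12.1 in MT, 3 macrophage markers summed to at most 1.21, and 5 cardiomyocyte markers summed to 1.80 in MB and 4.17 in MT. The targeted mRNA, Hnrnpl, was at 95.1 FPKM with si-NC and 85.9 with si-hnRNPL, a log2 change of -0.14 (-0.20 to -0.09).

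In MB the 9 genes fell into very different ranges. Bin1, which bends membranes through its BAR domain, was the highest with 82.9 FPKM (95% interval 81.5 to 84.4), above 91.8% of the 11091 named genes that reached 1 FPKM there. Jph2 followed with 30.6 (29.9 to 31.3), above 74.4% of these genes. Bin1 and Jph2 together were thus the only genes of the 9 above 10 FPKM in MB, and Bin1 alone made up 67.6% of the summed level of 123 FPKM. Jph1 was at 4.02 (3.82 to 4.23), Jsrp1 at 2.52 (2.17 to 2.88) and Srl at 1.20 (1.09 to 1.31), and the remaining 4 were below 1 FPKM. Mtm1 at 0.780 (0.664 to 0.896) and Stac3 at 0.637 (0.499 to 0.774) had overlapping intervals and could not be ordered. Hrc was at 0.0478 (0.0159 to 0.0797), on 9.0 fragments, and Trdn was listed at 0.

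In MT every one of the 9 genes was above 1 FPKM and 6 were above 10. The order from highest to lowest was Bin1, Srl, Jsrp1, Jph2, Hrc, Stac3, Jph1, Mtm1 and Trdn, and no neighbors in it had overlapping intervals. Bin1 was at 169 FPKM (166 to 171), above 97.8% of the 11421 named genes that reached 1 FPKM there, and Trdn at 2.43 (2.27 to 2.59), above 11.2%. Triadin transcripts were therefore the scarcest of the 9 in MT. The polyA tables were scaled on their own, come from an earlier time and give Srl a slightly longer locus, so their levels are only set beside those of MT. In si-NC the summed level was 362 FPKM against 384 in MT, and the order differed in that Jsrp1 and Jph2 stood above Srl and Trdn above Mtm1.

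**Figure D2:**
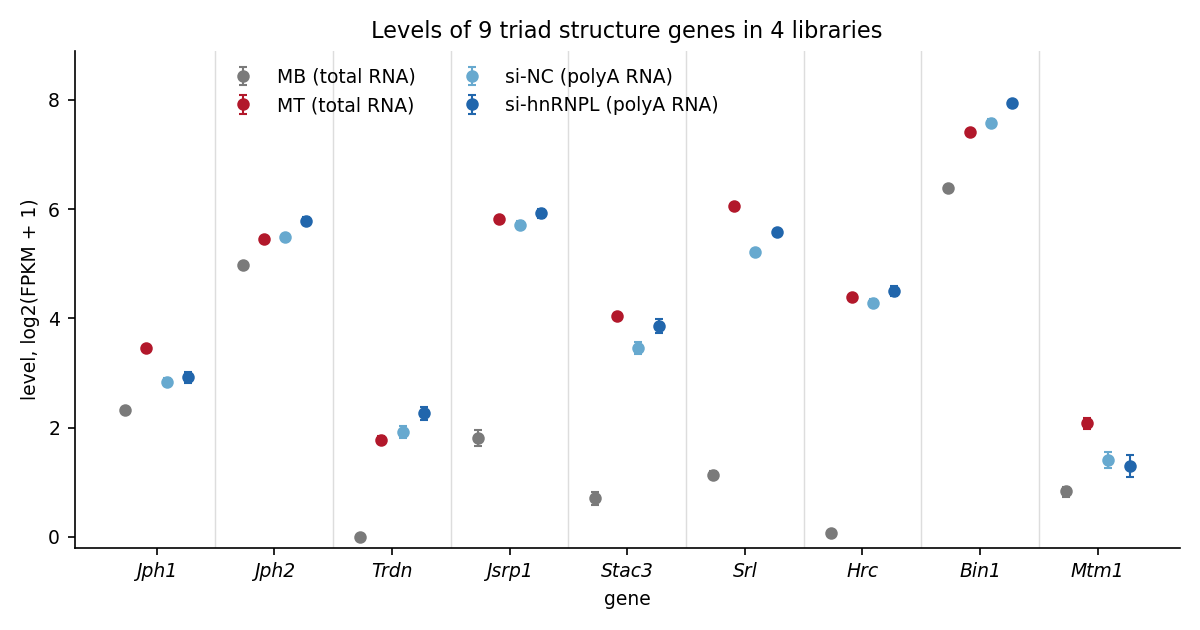
Levels of the 9 genes in 4 libraries as log2(FPKM + 1), with bars for the 95% interval of each FPKM in 1 library. Bin1 and Jph2 are the 2 genes already above 10 FPKM in MB (grey), whereas Hrc and Trdn lie at or near 0 there and reach 19.9 and 2.43 FPKM in MT (red).

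Comparing MT with MB asks how the genes of the junction behave as myoblasts become myotubes. For each gene 1 was added to both FPKM values and the log2 of their ratio was taken, a scale on which changes of low genes come out too small, and a gene was counted as higher or lower at 0.58 or more, about the 1.5-fold change that the methods of the study use. By this measure MT was higher for 8 of the 9 genes and lower for 0. Among 11758 named genes that reached 1 FPKM in either library, 15.4% were higher and 28.5% were lower. The median log2 change of the 9 genes was 1.78, and that of all these genes was -0.20. The former is the value of Trdn and moved to 4.40 with a pseudocount of 0.1 and to 3.27 after rescaling. A larger share of differentiated cells and more transcript per cell cannot be told apart in such bulk RNA.

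The tethers were already present in MB and changed moderately. Jph1, the junctophilin typical of skeletal muscle, was at 4.02 FPKM in MB and 9.93 (9.62 to 10.2) in MT, a log2 change of 1.12 (interval from both libraries 1.05 to 1.19). Jph2, which also serves the dyads of the heart, was at 30.6 in MB and 43.1 (42.3 to 43.9) in MT, a log2 change of 0.48 (0.44 to 0.52), and was the 1 gene that was not counted as higher. The intervals of the libraries did not overlap for either gene. As the increase was 2.47-fold for Jph1 (2.32 to 2.62) and 1.41-fold for Jph2 (1.37 to 1.45), the level of Jph2 relative to Jph1 was 7.60 in MB (7.19 to 8.03) and 4.34 in MT (4.19 to 4.50). FPKM is per length, so this ratio compares transcript numbers within a library.

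Jsrp1, Stac3, Srl and Hrc went from below 3 FPKM to above 10, and Trdn stayed low in MT. Jsrp1, which encodes JP-45 and binds the voltage sensor and calsequestrin, was at 2.52 FPKM in MB and 55.6 (54.0 to 57.2) in MT, a 22.0-fold difference (19.1 to 25.5). Stac3 was at 0.637 in MB and 15.5 (14.8 to 16.1) in MT, 24.3-fold (19.5 to 30.3). The intervals of the libraries were far apart for both. Trdn, which anchors calsequestrin to the ryanodine receptor, was listed at 0 in MB and at 2.43 in MT, so no fold is given, and its log2 change of 1.78 is set by the added 1. On this scale Srl, sarcalumenin, had the largest log2 change of the 9 at 4.92 (4.84 to 4.99). Srl was at 1.20 FPKM in MB and 65.5 (64.7 to 66.3) in MT, 54.5-fold (49.7 to 59.7). Hrc, the histidine-rich calcium-binding protein, was at 0.0478 in MB and 19.9 (19.3 to 20.6) in MT, a log2 change of 4.32 (4.26 to 4.38). Its FPKM ratio of 417 (214 to 813) rests on the 9.0 fragments in MB. The order of Srl and Hrc turned with a pseudocount of 0.1, where Hrc had a log2 change of 7.08 and Srl of 5.65, and after rescaling both libraries to the same sum, with 6.01 and 5.92. Srl, Hrc, Jsrp1 and Stac3 each lay above at least 99.2% of the named genes in log2 change.

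The membrane-shaping genes changed by less than these. Bin1 was at 82.9 FPKM in MB and 169 in MT, a log2 change of 1.01 (0.98 to 1.04) and 2.03-fold (1.99 to 2.08). Mtm1, the phosphatase myotubularin, was at 0.780 in MB and 3.23 (2.95 to 3.51) in MT, a log2 change of 1.25 (1.12 to 1.38) and 4.15-fold (3.49 to 4.92). Bin1 and Jph2, the most abundant of the 9 in MB, had the smallest log2 changes on this scale. The FPKM of a gene adds up its isoforms, so the muscle isoform of Bin1 was not separated from the others. The number of genes counted as higher and the background depend on scaling: when both libraries were rescaled to the same sum over named genes, all 9 were higher, Jph2 with a log2 change of 1.06, and 36.9% of all named genes were higher and 12.4% lower.

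**Figure D3:**
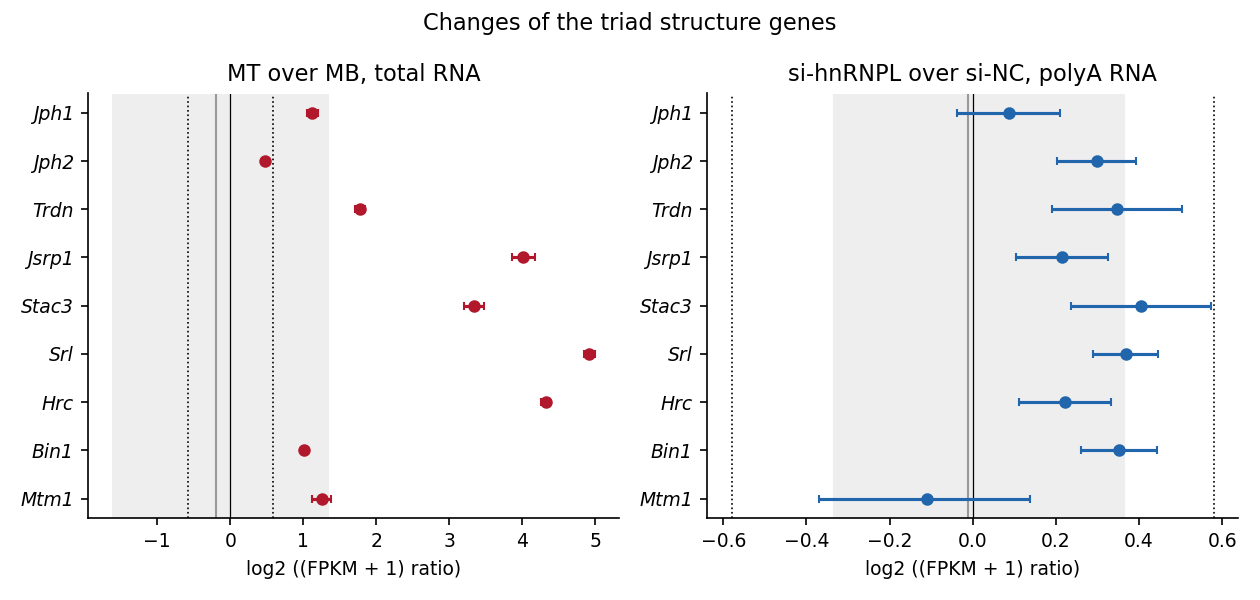
Log2((FPKM + 1) ratio) of each gene, MT over MB on the left and si-hnRNPL over si-NC on the right, with 95% intervals from both libraries. Grey bands run from the 5th to the 95th percentile of all named genes, grey lines mark their median and dotted lines mark 0.58 in either direction. On the left 8 genes lie beyond the dotted line, on the right 0, with 7 intervals above 0.

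Taken as a sum, the 9 genes were at 123 FPKM in MB and 384 in MT. Bin1 made up 67.6% of it in MB and 43.9% in MT, and Jph2 24.9% and 11.2%. Srl made up 0.98% of the sum in MB and 17.1% in MT, and Jsrp1 2.06% and 14.5%. The level of Srl relative to Hrc was 25.1 in MB (12.8 to 49.3) and 3.28 in MT (3.17 to 3.40).

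**Figure D4:**
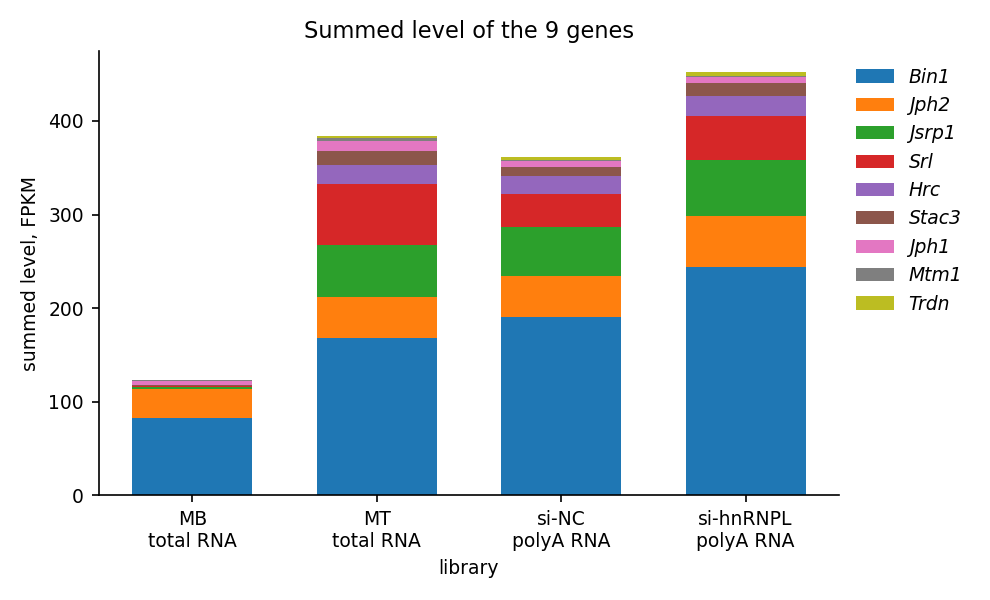
Summed FPKM of the 9 genes in each library, with 1 color per gene and bars that start at 0. The MB bar (123) consists mostly of Bin1 and Jph2, and Srl and Jsrp1 add to the MT bar (384), to that of si-NC (362) and to that of si-hnRNPL (452).

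The other genes of the junction were described from lists of calcium release and of T-tubule formation. Of 14 genes of calcium release, 13 reached 1 FPKM in MB or MT, and of these 10 were higher in MT, 1 was lower and 2 were not counted, with a median log2 change of 3.04. Casq2, a calsequestrin that binds calcium in the terminal cisternae, had the largest log2 change of the list on this scale at 6.53, from 0.261 to 115 FPKM. Atp2a1, the calcium pump of fast fibers, was at 0.136 FPKM in MB and 59.3 in MT. Atp2a2, another calcium pump gene whose isoforms were not separated, was at 70.0 and 69.6. Both pumps were thus abundant in MT, and Atp2a2 alone in MB. Cacng1, a subunit of the dihydropyridine receptor, was at 29.3 FPKM and 106. Of the genes outside the naming rule, chosen after their values were seen, Ryr1, the release channel, was at 0.0643 FPKM in MB and 7.78 in MT, and Cacna1s, the voltage sensor, at 0.01 and 9.80. Fkbp1a, which encodes the channel-binding protein FKBP12, was the lower gene, also named after its values were seen, with 65.7 FPKM in MB and 26.4 in MT.

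Of 11 T-tubule genes 6 were higher, 2 were lower and 3 were not counted, with a median log2 change of 1.04. Trim72, a membrane repair protein, was at 0.0783 FPKM in MB and 32.8 in MT, and Cav3, the muscle caveolin, at 0.327 and 19.5. Rtn2, a reticulon, was at 25.1 and 88.0, and Myof, a ferlin of membrane fusion, at 67.4 and 57.8. The lower genes, named after their values were seen, were Ehd1, an endocytic recycling protein, with 49.4 and 22.7, and Mtmr14, a phosphoinositide phosphatase, with 13.8 and 8.63.

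Paralogs of the 9 genes were mostly low, and those that reached 1 FPKM did not share a direction of change. Of 9 paralogs, 4 reached 1 FPKM in MB or MT, among which Mtmr1 was higher in MT, Bin3 was not counted and Mtmr2 was lower. Mtmr2 and Mtmr1, relatives of myotubularin, were at 46.6 and 7.39 FPKM in MB and at 24.9 and 12.5 in MT, all above Mtm1 in the same library. The fourth was Stac2, at 10.9 in MB and 5.80 in MT and thus also lower. Jph3, Jph4, Stac, Amph and Bin2 were at most at 0.0922 FPKM in either library.

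**Figure D5:**
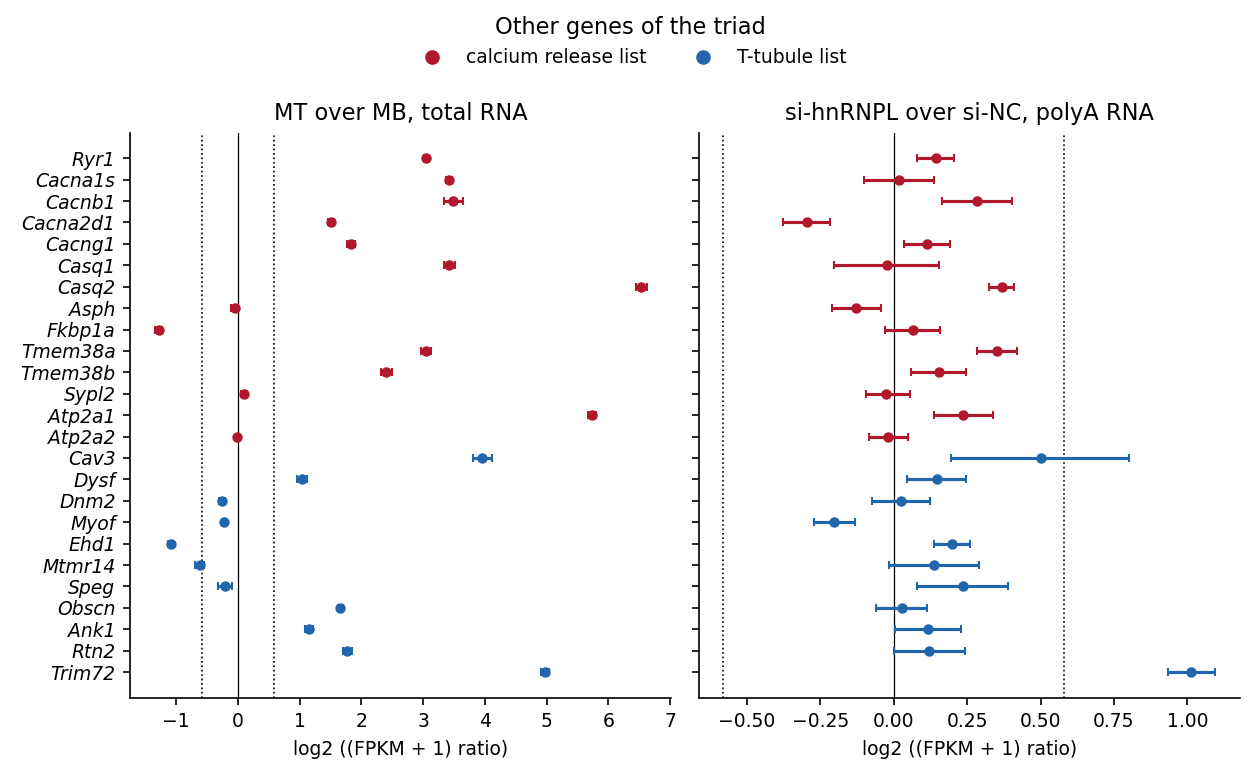
Log2((FPKM + 1) ratio) of 14 calcium release genes (red) and 11 T-tubule genes (blue), MT over MB on the left and si-hnRNPL over si-NC on the right, with 95% intervals and dotted lines at 0.58. On the left 10 red and 6 blue genes lie beyond the upper dotted line, and on the right 1 blue gene, Trim72.

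Comparing si-hnRNPL with si-NC asks whether a siRNA against an RNA-binding protein changes these transcripts in differentiating cells. The target mRNA itself was at 85.9 FPKM with si-hnRNPL and 95.1 with si-NC, 0.904-fold (0.867 to 0.942), and was not counted as lower. The mRNA levels thus show little knockdown in this pair, and the protein was not measured in these data. In cells transfected with siRNAs against hnRNPL, the paper examined the protein by Western blot and describes it as knocked down. Whether that blot covers the cells of this library is not stated there. By the threshold of 0.58, 0 of the 9 genes were higher and 0 were lower in si-hnRNPL, where 1.44% of the 11369 named genes at 1 FPKM or more in either library were higher and 0.888% lower. The changes were small but mostly of 1 sign, since 8 of 9 were positive and the 95% interval from both libraries lay above 0 for 7 genes and below 0 for 0. Over all named genes the interval lay above 0 for 20.6% and below 0 for 26.6%, and 48.1% of the changes were positive. The median log2 change of the 9 genes was 0.30, against -0.01 for all genes.

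Stac3 was at 10.0 FPKM (9.14 to 10.9) with si-NC and 13.6 (12.3 to 14.8) with si-hnRNPL, a change of 0.41 (0.24 to 0.57). Srl was at 36.2 (34.8 to 37.6) with si-NC and 47.0 (45.2 to 48.9) with si-hnRNPL, 0.37 (0.29 to 0.45). Bin1 was at 191 (182 to 199) with si-NC and 244 (233 to 255) with si-hnRNPL, 0.35 (0.26 to 0.44). Stac3 and Srl lay above 96.3% and 95.2% of all named genes in log2 change, and Bin1 above 94.6%. Trdn was at 2.79 (2.52 to 3.06) with si-NC and 3.83 (3.43 to 4.22) with si-hnRNPL, 0.35 (0.19 to 0.50). Jph2 was at 43.9 (41.9 to 46.0) and 54.2 (51.6 to 56.9), 0.30 (0.20 to 0.39). In each of these 5 genes the intervals of the libraries did not overlap.

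The remaining genes moved less. Hrc was at 18.4 FPKM (17.5 to 19.4) with si-NC and 21.7 (20.4 to 23.0) with si-hnRNPL, 0.22 (0.11 to 0.33), and Jsrp1 was at 51.4 (48.8 to 54.0) and 59.8 (56.3 to 63.3), 0.22 (0.11 to 0.32). Jph1 was at 6.14 (5.75 to 6.53) and 6.59 (6.08 to 7.09), 0.09 (-0.04 to 0.21), and its intervals overlapped. Mtm1 was the 1 gene with a negative change, at 1.67 (1.39 to 1.95) and 1.47 (1.13 to 1.82), -0.11 (-0.37 to 0.14). Its interval in si-hnRNPL is as wide as that of 73.3 fragments, so a change of this size in Mtm1 was not detectable here. The level of Jph2 relative to Jph1 was 7.16 in si-NC (6.62 to 7.75) and 8.23 in si-hnRNPL (7.52 to 9.01), with overlapping intervals.

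Other values moved with these changes. Markers of myotubes had a median log2 change of 0.43 over 9 listed markers, with 7 intervals above 0 and 3 markers higher by the threshold, and a summed level of 3370 FPKM with si-NC and 4850 with si-hnRNPL. Myog, the gene of myogenin, was at 175 and 249 FPKM, and Ckm, muscle creatine kinase, with the largest change of these markers, at 45.0 and 74.3. The markers Myh1, at 7.52 and 7.11, and Cdh15, at 167 and 162, had negative changes. The interval lay below 0 for Cdh15 and included 0 for Myh1. All 6 genes of dividing cells had an interval below 0, with a median of -0.51, and 3 were lower by the threshold. Whether this shift in markers takes part in the changes of the 9 genes was not tested. By their merged exons in GENCODE vM1, the 9 genes differ in exon length and GC content. They run from 1325 bases and 62.0% GC in Jsrp1 to 13935 bases and 38.0% in Mtm1, and Trdn has 36.7% GC. These lengths may differ from those behind the FPKM. After the dependence of the change on both properties had been subtracted, as decided after the data were seen, 6 intervals lay above 0, and Jsrp1 had a change of -0.01, Mtm1 of 0.09 and Trdn of 0.47.

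Of the 14 genes of calcium release 13 reached 1 FPKM in the polyA libraries, and 0 were higher or lower by the threshold, with a median log2 change of 0.11. Casq2 was the highest of these at 0.37, with 133 FPKM with si-NC and 171 with si-hnRNPL, whereas Cacna2d1, an auxiliary subunit of the calcium channel with the most negative change of the list, was at 25.9 and 21.0, a change of -0.30. Ryr1 was at 7.02 and 7.86 and Cacna1s at 7.94 and 8.07. Cacna2d1, Ryr1 and Cacna1s were again named after their values were seen. Of the 11 T-tubule genes 1 was higher, Trim72, with 26.5 FPKM with si-NC and 54.5 with si-hnRNPL and a change of 1.01, and the median was 0.14. Cav3 was at 4.05 and 6.14, a change of 0.50.

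Little else was listed at the loci of the 9 genes in the total RNA tables. Transcript units assembled from the reads lay inside 2 loci, with 1 unit each. The unit in Jph1 (chromosome 1, 17082726 to 17082970) was at 0.415 FPKM in MB and 2.05 in MT, on 3.0 and 16.0 fragments. The unit in Trdn (chromosome 10, 32917345 to 32917699) was listed at 0 in MB, like Trdn itself, and was at 1.05 (0.553 to 1.54) in MT. A named gene, D830005E20Rik, also lies in the Trdn locus and was listed at 0 in MB and at 0.0547 FPKM in MT. A830052D11Rik overlaps the first part of Bin1 and was at 0.211 FPKM in MB and 1.14 in MT, and whether reads of the overlap were shared with Bin1 was not tested. Within 50 kb on either side of the 9 loci the tables listed 54 further units.

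Over the 4 libraries, the genes most like the median of the 9 were sought by the Euclidean distance between log2(FPKM + 1) values centred on each gene, among 11579 genes. The nearest 5 that were not members were Ppfia4, Dhrs7c, Ifi27l2a, Pgm5 and Rab3il1, at distances from 0.24 to 0.29. Ppfia4 was at 0.0204 FPKM in MB, 4.07 in MT, 2.86 with si-NC and 3.83 with si-hnRNPL. Among the 9 themselves Srl was farthest from the median at 2.11. Trdn was nearest at 0.39, but the median equals the centred values of Trdn itself in MB, si-NC and si-hnRNPL. Its place as the nearest is therefore largely set by how the median was formed. As Trdn was listed at 0 in MB, the likeness of the other genes to the median also depends on the added 1. The profile has 4 points from libraries of different kinds, so the likeness is a description only.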

How the data were processed

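MB and MT were profiled by total RNA-seq and si-NC and si-hnRNPL cells by polyA RNA-seq, with 1 library each. The authors trimmed the reads, discarded those shorter than 36 bp, aligned the rest to mm9 with TopHat and deposited FPKM values with 95% intervals from Cufflinks. The gene annotation and strand setting are not given in the sources used here. The number of fragments that an interval corresponds to was derived as (2 x FPKM / (upper bound - FPKM)) squared. This number is too low where read assignment widened the interval.

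Log2((FPKM + 1) ratios) were computed for every named entry with status OK, with intervals from the half-widths of both libraries added in quadrature, and counted at 0.58 or more. Entries that reached 1 FPKM in either library formed the background. Rescaling set the sum of named genes to 1000000 FPKM, without Rn45s and loci under 300 bp. The 9 genes, the lists and the alternatives were chosen with earlier results of these data known. All 9 are named, and from each list at most 4 genes with the highest MT level or the largest change, apart from those said to be chosen otherwise. Upstream windows, exon lengths and GC contents came from the NCBIM37 (mm9) genome and the GENCODE vM1 annotation, with starts from the deposited loci and strands from GENCODE. The upstream window of Jph1 is not reported here. The calculations used Python 3.11.15, numpy 2.4.6, pandas 2.3.3 and matplotlib 3.10.9. The log2 changes and intervals were tested only on counts simulated from the better covered genes of si-NC. The simulated intervals held counting alone, so the test does not cover read assignment, the total RNA libraries or values on few fragments.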

Additional observations from a re-analysis of the deposited data

How the results depend on the processing

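No paired analysis was possible because each condition has 1 library, which also means that no library could be left out. For MT over MB, 8 of the 9 genes stayed higher with a pseudocount of 0.1 or 0.01, at a threshold of 1 and after adjustment for exon length and GC content, and all 9 were higher after rescaling to a common sum or centring on the median, where Jph2 passed the threshold. The median log2 change of the 9 genes was 4.40 with a pseudocount of 0.1, 4.46 with 0.01, 3.27 after rescaling, 2.00 after centring and 1.39 after the adjustment. Mtm1 had a log2 change of 1.25 as reported but of 0.62 after the adjustment, close to the threshold of 0.58 and below that of Bin1, 1.22. Rescaling moved the median of all genes from -0.20 to 0.33. The share of all named genes that were higher in MT became 36.9% and that of lower ones 12.4% after rescaling, and 18.6% were lower after centring. The largest log2 change was that of Srl as reported, but that of Hrc with a pseudocount of 0.1 or 0.01 (8.43 against 5.76 for Srl and 7.93 for Trdn with 0.01) and after rescaling. At a threshold of 1 the shares were 7.89% and 13.3%, and with no filter on FPKM 7.91% and 13.8%.

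For si-hnRNPL over si-NC, 0 of the 9 genes passed the threshold under any of these settings, 8 of 9 changes stayed positive under all of them except the adjustment (7 of 9), with a change of Jph1 near 0 after rescaling, and the number of intervals above 0 was 5 when the intervals were doubled in width. The shares of all named genes higher and lower were 2.46% and 1.87% with a pseudocount of 0.1, 2.65% and 1.97% with 0.01, 0.334% and 0.15% at a threshold of 1, and 0.688% and 0.416% with no filter. After rescaling 2.38% were lower, and after the adjustment 0.5% were higher. The adjustment and the wider intervals were chosen after seeing the data. The intervals measure counting and read assignment within a library, and how far 2 cultures of the same kind differ is unknown here.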

Other observations

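Stac2, a paralog of Stac3, was above it in MB, si-NC and si-hnRNPL and below it in MT. The level of Stac3 relative to Stac2 was 0.0585 in MB (95% interval 0.0470 to 0.0728) and 2.67 in MT (2.49 to 2.86), but 0.369 in si-NC (0.336 to 0.406) and 0.566 in si-hnRNPL (0.510 to 0.629). Stac2 was at 5.80 FPKM in MT and 27.1 in si-NC, while Stac3 was at 15.5 and 10.0. The MT and si-NC libraries differ in RNA selection, in time in DM and in transfection, which cannot be told apart here.

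The calsequestrins had the same order in all 4 libraries. Casq2, the form first described in the heart, was above Casq1, the form of fast muscle fibers, with a ratio of 6.19 in MB (2.61 to 14.7), 11.3 in MT (10.7 to 11.9), 13.5 in si-NC (12.3 to 14.7) and 17.7 in si-hnRNPL (15.9 to 19.7). In MB both were near 0, Casq2 at 0.261 FPKM and Casq1 at 0.0422, so the ratio there rests on very low levels.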
